A study of Rattus norvegicus with 170 samples.

Results

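The genes described here encode 9 kinases of the DYRK, GSK3 and CLK families, to which the targets of the compound GNF4877 belong. They were chosen by name as *Dyrk1a*, *Dyrk1b*, *Dyrk2*, *Gsk3a*, *Gsk3b*, *Clk1*, *Clk2*, *Clk3* and *Clk4*. Each had 1 row in the deposited table, so they were 9 of its 27586 transcript rows and 9 of the 24113 genes obtained by summing rows with the same symbol. The rows were NM_012791.2 for *Dyrk1a*, NM_001107496.1 for *Dyrk1b*, NM_001108100.1 for *Dyrk2*, NM_017344.1 for *Gsk3a*, NM_032080.1 for *Gsk3b*, NM_001106913.2 for *Clk1*, NM_001014254.1 for *Clk2*, NM_134340.1 for *Clk3* and NM_001013041.1 for *Clk4*. The question was which of these kinases the islet cells under study transcribed, in which cells, and how often the same cell held several of them.

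Islets of wild type Sprague Dawley rats, males of 8 weeks, were hand picked and kept for 48 h in RPMI1640 with 10% FBS and 5.5 mM glucose. The medium of 1 group held 0.1% DMSO, the vehicle, and that of the other held 3 μM GNF4877, a compound studied as a stimulus of β-cell proliferation. The islets were then dispersed with trypsin and run on the Fluidigm C1, a microfluidic device that captures single cells and amplifies cDNA from each. Profiles of 86 DMSO cells and 84 GNF4877 cells were analysed.

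The cells carry no animal, culture or chip label. Each treatment is therefore 1 sample, cells are not replicates, no test was run, and effects of the treatment cannot be told apart from those of the chip or the sequencing lane. Values are RPM as the authors deposited them, in which each cell's reads are scaled by its mapped total. They are not divided by transcript length, and longer transcripts give more reads, so levels are compared between groups of cells and not between genes. Shares of cells are given with exact Clopper-Pearson 95% intervals, which cover counting error only.

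DYRK1A, a kinase that first phosphorylates itself on tyrosine and then other proteins on serine and threonine, and GSK3B, which often acts on sites that another kinase has primed, both phosphorylate NFAT transcription factors and favour their export from the nucleus. The phosphatase calcineurin removes those phosphates, and in β-cells the balance bears on proliferation. The CLK kinases phosphorylate SR proteins, which bind RNA and steer its splicing. All of these kinases belong to the CMGC group, together with the cyclin-dependent kinases and the MAP kinases.

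A cell was called a beta cell with *Ins1* of 1000 RPM or more and *Gcg* below 1000 RPM, and an alpha cell with *Gcg* of 1000 RPM or more and *Ins1* below 1000 RPM. This gave 56 beta and 5 alpha cells in DMSO, and 58 beta and 18 alpha cells in GNF4877. A further 22 DMSO cells and 1 GNF4877 cell held both hormones, and 3 DMSO cells and 7 GNF4877 cells held neither. The authors checked the capture of single cells by microscopy, and no further step against doublets was taken here.

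Markers that the rule did not use followed these names in part. *Ins2* was read in every beta cell, with medians of 13399 RPM in DMSO and 5652 RPM in GNF4877. The medians of *Iapp* were 669 and 3200 RPM and those of the glucose transporter *Slc2a2* 445 and 1292 RPM, so beta cell markers did not all go the same way. *Pdx1*, a transcription factor of beta cells, was read in 50 of the 56 DMSO beta cells and 40 of the 58 GNF4877 beta cells. *Mafa*, another such factor, was read in 3 of the 56 and in 0 of the 58 (interval up to 6.16%), so this defining marker was nearly absent from the beta cells. *Nkx6-1* and *Mafa* had no read in any alpha cell of either treatment, but the other beta cell markers did. *Ins2* and *Iapp* were read in all 5 DMSO and all 18 GNF4877 alpha cells. Their medians were 73.5 and 8.06 RPM for *Ins2* and 223 and 12.1 RPM for *Iapp*. *Slc2a2* was read in 5 and 17 of these alpha cells, *Ucn3* in 4 and 5, and *Pdx1* in 1 and 0.

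Hormone reads were not confined to their own cells. *Gcg* was read in every beta cell, with medians of 73.6 RPM in DMSO and 73.7 RPM in GNF4877. *Ins1* was read in every alpha cell, with medians of 129 RPM in the 5 DMSO cells and 24.2 RPM in GNF4877. Whether low reads of a kinase came from the cell itself was not tested. Of the markers of other cell types, the 5 acinar genes had no read in alpha cells. *Cela2a* was the only one read in GNF4877 beta cells, in 3 of 58, while all 5 were read in DMSO beta cells, at most in 8 of 56 (*Prss1*). Mesenchymal *Col1a1* was read in 6 of 56 DMSO and 10 of 58 GNF4877 beta cells, with means of 117 and 0.147 RPM. *Pdgfrb* went the other way in share, with 13 of 56 and 3 of 58, while *Col1a2* was read in 4 and 4 and *Col3a1* in 7 and 7. The 4 mesenchymal genes summed to 8491 RPM in 1 DMSO beta cell. Of the immune genes, *Cd74* was read in 10 and 16 cells, with means of 3.60 and 54.4 RPM, and *Ptprc* in 12 and 7, with means of 0.243 and 0.186 RPM. *Cd68* was read in 1 and 5 cells, with means of 0.244 and 6.98 RPM, and *Lyz2* in 5 and 0. The duct marker *Cftr* was read in 55 of 56 and 54 of 58 and the alpha cell marker *Slc7a2* in 53 and 50. *Ppy*, the PP cell hormone, had a median of 2.28 RPM in DMSO beta cells and 2.84 RPM in GNF4877 beta cells, and *Sst* or *Ppy* reached 1000 RPM in 3 beta cells of each treatment.

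Depth and gene content moved with the treatment. The DMSO beta cells had from 241604 to 2497246 mapped reads and the GNF4877 beta cells from 324416 to 2171567, with medians of 1182924.5 and 1420597. A median of 8809 genes was read per DMSO beta cell and 7059.5 per GNF4877 beta cell, so the deeper group read fewer genes. After every cell was thinned to 100000 reads on listed transcripts, which left out 2 DMSO and 1 GNF4877 beta cells with fewer, the medians were 6441 and 4944 genes. The part of gene content in the differences between treatments below was not tested.

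In 7 cells, fewer than 20% of the mapped reads lay on listed transcripts, against a median of 93.03% in DMSO beta cells and 93.6% in GNF4877 beta cells. Among them were 3 DMSO beta cells and 1 GNF4877 beta cell. Without these 4 cells, *Dyrk1a* was read in 41.5% of DMSO and 15.8% of GNF4877 beta cells, *Gsk3b* in 94.3% and 82.5%, and *Clk1* in 98.1% and 98.2%. The values below, which include the 4 cells, differ little from these.

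The kinases differed in the share of beta cells with a read. *Clk1*, *Gsk3b*, *Clk4* and *Dyrk2* were read in more than 70% of the beta cells of each treatment. *Clk2* and *Clk3* passed 70% in DMSO only, at 80.4% and 75%. *Gsk3a* was read in 66.1% of DMSO beta cells and in a minority, 29.3%, of GNF4877 beta cells. *Dyrk1a* was read in a minority of the beta cells of each treatment. *Dyrk1b* was close to absent. Longer transcripts give more reads, so this order is not one of expression, and the intervals of neighbours such as *Gsk3b*, *Clk4* and *Dyrk2* overlapped.

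**Figure D1:**
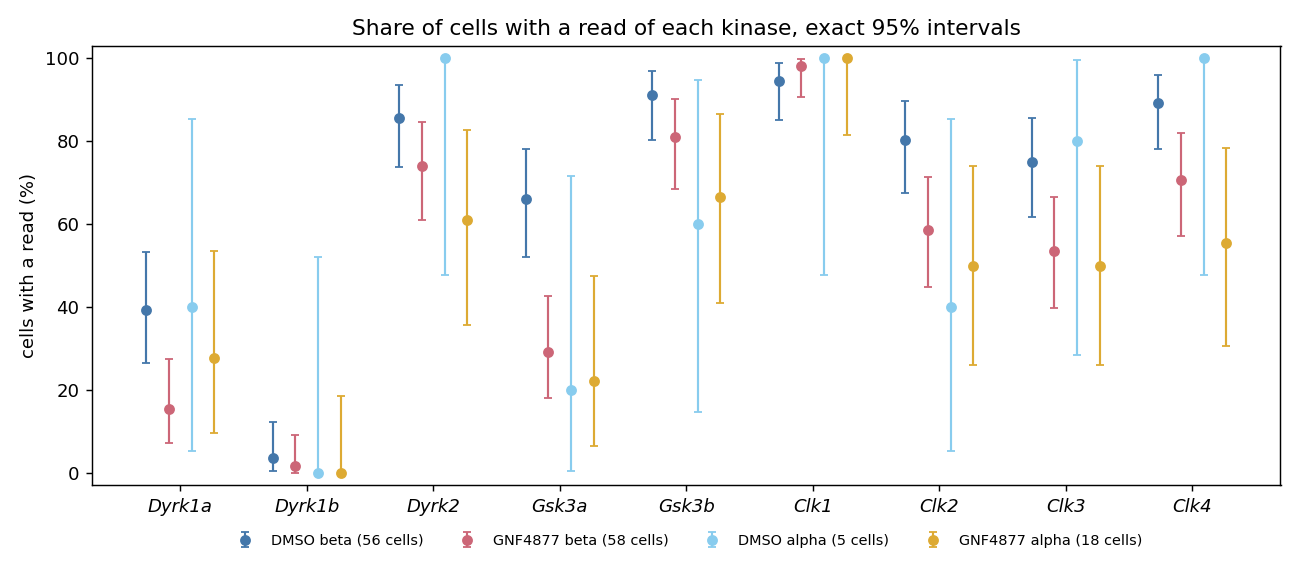
Share of cells with a read of each kinase, in percent, in DMSO and GNF4877 beta and alpha cells. Points are shares and bars are exact Clopper-Pearson 95% intervals for counting error only; *Clk1* lies near the top in all groups, *Dyrk1b* near 0, and the interval of the 5 DMSO alpha cells is wide for every kinase.

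*Dyrk1a* was read in 22 of the 56 DMSO beta cells (39.3%, interval 26.5% to 53.2%) and 9 of the 58 GNF4877 beta cells (15.5%, 7.35% to 27.4%). It ranged from 0 to 111 RPM in DMSO beta cells and from 0 to 315 RPM in GNF4877 beta cells, with a median of 0 in both. Most beta cells of either treatment thus gave no read of this kinase, and the intervals of the shares overlapped slightly. Only 12 DMSO and 4 GNF4877 beta cells reached 10 RPM.

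The mean of *Dyrk1a* was 8.14 RPM in DMSO and 10.99 RPM in GNF4877 beta cells, a log2 ratio of 0.39 with 1 RPM added to each mean, while the mean of log2(RPM + 1) per cell was lower in GNF4877, by a difference of -0.78. A single cell, number 81 of GNF4877 at 315 RPM, held 49.5% of all *Dyrk1a* RPM of its group, and without it the ratio was -0.46. Share and mean went in opposite directions, so no order of the treatments is read from either. At 100000 reads per cell, the shares were 27.8% (16.5% to 41.6%) in DMSO and 8.77% (2.91% to 19.3%) in GNF4877.

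*Dyrk1b*, the nearest relative of *Dyrk1a*, was read in 2 of the 56 DMSO beta cells and 1 of the 58 GNF4877 beta cells. Its highest value in any cell was 3.37 RPM. No alpha cell had a read of it, with intervals of the share up to 18.5% in GNF4877 and 52.2% in DMSO. The 22 DMSO cells with both hormones included 3 with a read, each of 1 or 2 reads. With group means below 1 RPM, *Dyrk1b* was the only kinase of the 9 left out of the counts of 2-fold ratios.

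*Dyrk2*, which phosphorylates, among other proteins, priming sites later used by GSK3, was the most widely read DYRK gene. It was read in 48 of the 56 DMSO beta cells (85.7%, 73.8% to 93.6%) and 43 of the 58 GNF4877 beta cells (74.1%, 60.96% to 84.7%). Its median was 54.1 RPM in DMSO, within a range of 0 to 604 RPM, and 44.4 RPM in GNF4877, within 0 to 1345 RPM. The ranges overlapped from 0 to 604 RPM, and no order is read, since the mean was higher in GNF4877 (log2 ratio 0.49) and the share and the mean log2 value (difference -0.46) were lower. The GNF4877 cells were split more widely: 26 of them reached 100 RPM, against 20 DMSO cells, while 15 and 8 had no read.

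*Gsk3a*, the larger of the GSK3 isoforms, showed the widest gap in share between the treatments with all reads, though not at equal depth, where that of *Clk3* was wider (70.4% and 43.9%). It was read in 37 of the 56 DMSO beta cells (66.1%, 52.2% to 78.2%) and 17 of the 58 GNF4877 beta cells (29.3%, 18.1% to 42.7%), and these intervals did not overlap. The values were low. The median was 1.49 RPM in DMSO, within a range of 0 to 95.3 RPM, and 0 in GNF4877, within 0 to 64.8 RPM. Of the cells with a read, 15 of the 37 DMSO cells and 10 of the 17 GNF4877 cells held 1 or 2 reads. At equal depth the shares were 27.8% (16.5% to 41.6%) and 10.5% (3.96% to 21.5%), with intervals that overlapped.

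The mean of *Gsk3a* was 5.81 RPM in DMSO and 3.16 RPM in GNF4877 beta cells, a log2 ratio of -0.71. Share, median, mean and mean log2 value, with a difference of -1.001, were all lower in GNF4877. The ratio of mean RPM did not reach 2-fold with every cell in. It did with reads scaled to listed instead of mapped reads (-1.06), and without GNF4877 cell 48, at 64.8 RPM (-1.14), or cell 22, at 54.6 RPM (-1.06). It was nearer 0 without DMSO cell 77, at 95.3 RPM (-0.32), and with 10 RPM added to each mean (-0.26).

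*Gsk3b*, the isoform named as a target of the compound, was read in 51 of the 56 DMSO beta cells (91.1%, 80.4% to 97.0%) and 47 of the 58 GNF4877 beta cells (81.03%, 68.6% to 90.1%). It ranged from 0 to 594 RPM in DMSO and from 0 to 899 RPM in GNF4877. The medians were 149 and 31.2 RPM, whereas the means were 146 and 209 RPM. The GNF4877 beta cells were thus spread further apart in both directions.

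The quartiles show the same spread. The lower and upper quartiles of *Gsk3b* were 17.3 and 235 RPM in DMSO beta cells, against 1.25 and 383 RPM in GNF4877 beta cells. The ratio of SD to mean was 0.959 in DMSO and 1.33 in GNF4877. The log2 ratio of means was 0.51, from 0.42 to 0.59 with any 1 cell left out, and the difference of mean log2 values was -0.84. The sign thus depended on whether RPM or log values were averaged, and no order is read from it. At equal depth, 85.2% (72.9% to 93.4%) of DMSO and 63.2% (49.3% to 75.6%) of GNF4877 beta cells had a *Gsk3b* read.

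*Clk1* was read in 53 of the 56 DMSO beta cells (94.6%, 85.1% to 98.9%) and 57 of the 58 GNF4877 beta cells (98.3%, 90.8% to 99.96%). It was the only kinase of the 9 with a higher share in GNF4877, and at equal depth the order turned, with 88.9% in DMSO and 78.9% in GNF4877. Its median was 116 RPM and its mean 115 RPM in DMSO, within a range of 0 to 447 RPM. The GNF4877 median was 62.9 RPM and the mean 156 RPM, within 0 to 741 RPM. As for *Gsk3b*, the median was lower and the mean higher in GNF4877, with a log2 ratio of means of 0.44 and a difference of mean log2 values of -0.40, and no order is read.

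Among the other CLK genes, *Clk4* was read in 50 of the 56 DMSO beta cells (89.3%, 78.1% to 96.0%) and 41 of the 58 GNF4877 beta cells (70.7%, 57.3% to 81.9%). *Clk2* was read in 45 (80.4%, 67.6% to 89.8%) and 34 (58.6%, 44.9% to 71.4%), and *Clk3* in 42 (75%, 61.6% to 85.6%) and 31 (53.4%, 39.9% to 66.7%). All 3 pairs of intervals overlapped. The median of *Clk4* was 33.03 RPM in DMSO and 22.04 RPM in GNF4877, that of *Clk2* 4.52 and 0.808 RPM, and that of *Clk3* 35.2 and 1.10 RPM. *Clk3* was the only one of the 3 whose mean was lower as well, at 75.2 RPM in DMSO and 55.97 RPM in GNF4877, a log2 ratio of -0.42 and a difference of mean log2 values of -1.36. The means of *Clk2* were 35.7 and 45.2 RPM, a log2 ratio of 0.33 against a difference of mean log2 values of -0.56, and without GNF4877 cell 60, at 608 RPM, the ratio was -0.01. Those of *Clk4* were 72.5 and 89.7 RPM, a log2 ratio of 0.30 against a difference of -0.56. No order is read for *Clk2* and *Clk4*, whose shares were lower and means higher in GNF4877.

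**Figure D2:**
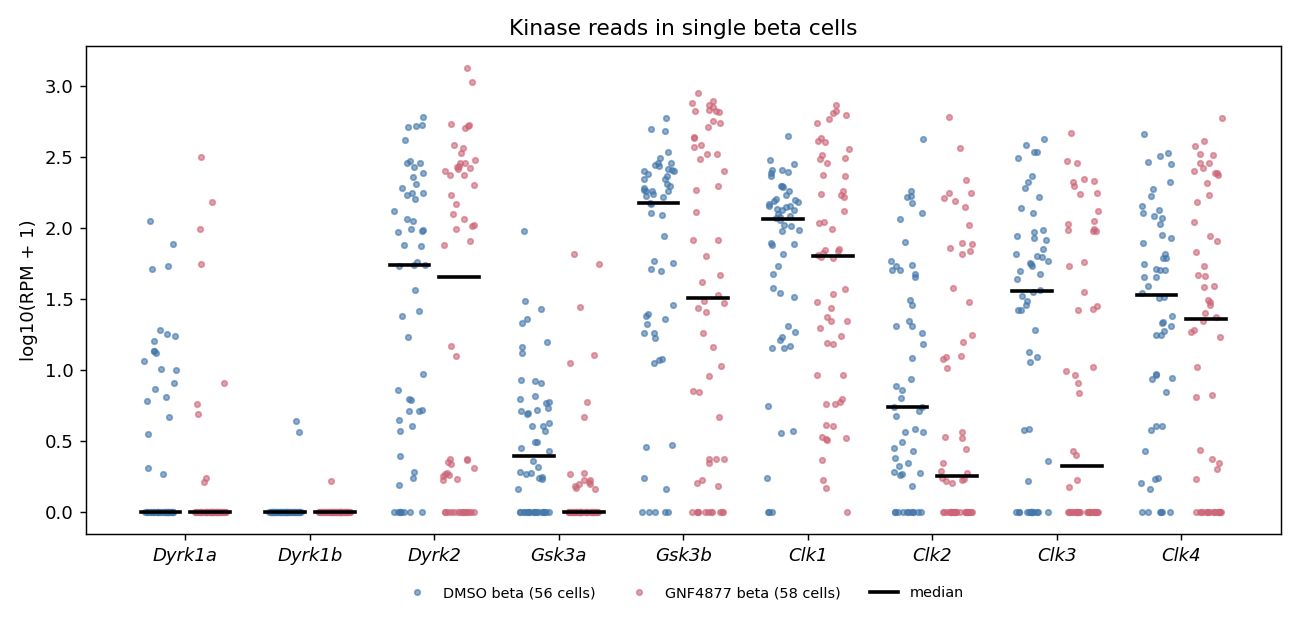
Each point is 1 beta cell, with log10(RPM + 1) on the vertical axis, for 56 DMSO and 58 GNF4877 beta cells, and black bars are medians. For *Gsk3b*, *Clk1* and *Clk3* the GNF4877 medians lie lower while single cells reach as high as or higher than in DMSO; most points of *Dyrk1a* and nearly all of *Dyrk1b* lie at 0.

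By the ratio of mean RPM, no kinase passed 2-fold between the beta cells of the treatments. Of the 13261 genes with an average of the DMSO and GNF4877 beta cell means of 1 RPM or more, 11% had a mean 2-fold higher in GNF4877 beta cells and 17% a mean 2-fold lower. Of the 8 kinases that passed this limit, 0 were 2-fold higher and 0 were 2-fold lower. Their median log2 ratio was 0.36, against -0.08 over all 13261 genes, and 6 of the 8 had a higher mean in GNF4877, against 46.4% of the genes, namely *Dyrk1a*, *Dyrk2*, *Gsk3b*, *Clk1*, *Clk2* and *Clk4*, though by the mean of log2(RPM + 1) all 8 were lower in GNF4877, with a median difference of -0.67 against -0.42 over all genes. By that measure *Clk3* (-1.36) and, barely, *Gsk3a* (-1.001) were 2-fold lower, as were 22.03% of all genes, and 0 kinases were 2-fold higher, against 1.92%.

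Lower shares and wider spread were found over most genes, and the median difference in share was larger for the kinases. The share of cells with a read was lower in GNF4877 beta cells for 8 of the 9 kinases and for 75.03% of the 13261 genes. The median difference of share was -20.1 percentage points over the 8 kinases past the limit and -8.07 over the genes. The median share over the genes was 64.3% in DMSO and 46.6% in GNF4877. The kinases were not compared with genes of like share in DMSO. At equal depth the share was lower for all 9 kinases, and for 80.7% of the genes. The ratio of SD to mean was higher in GNF4877 for all 8 kinases, and over all genes with a read in both groups for 83.5%, with medians of 1.70 in DMSO and 2.38 in GNF4877.

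By share of DMSO beta cells with a read, *Clk1* stood above 88.9% of all 24113 genes, *Gsk3b* above 85.8%, *Dyrk2* above 82.5% and *Dyrk1a* above 60.7%. In GNF4877 beta cells these places were 94.02%, 85.02%, 82.7% and 53.9%. *Gsk3a* moved furthest, from 72.6% to 63.3%, and *Dyrk1b*, *Clk2*, *Clk3* and *Clk4* also had lower places in GNF4877. Among 59 CMGC kinases in the table, *Dyrk1a* was at place 39 in DMSO and 43 in GNF4877, and *Gsk3b* at place 14 in both. *Clk1* was at place 11 in DMSO and 3 in GNF4877.

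The next question was how many of the kinases 1 cell held. Of the 9, a median of 7 were read per DMSO beta cell, from 3 to 8, and a median of 5 per GNF4877 beta cell, from 1 to 8. In DMSO, 43 of the 56 beta cells had reads of 6 kinases or more, against 17 of the 58 in GNF4877. No cell held reads of all 9. At equal depth the medians were 5 and 4 kinases. The number of kinases read went with the number of genes read, with a Pearson r of 0.66 across the 56 DMSO and 0.44 across the 58 GNF4877 beta cells. The cells of a treatment may share a chip, and their depths enter both counts.

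**Figure D3:**
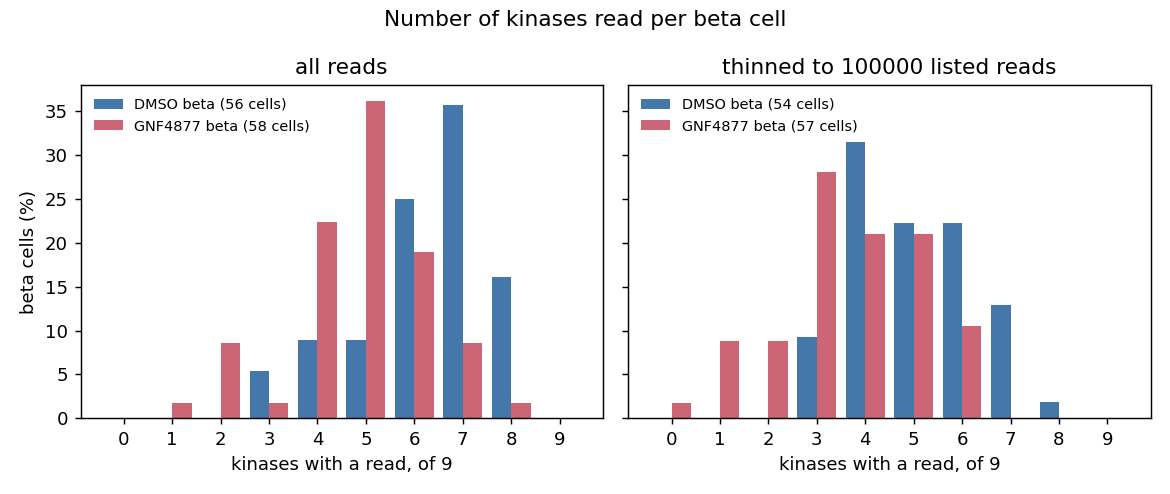
Number of the 9 kinases with a read per beta cell, as a percent of the beta cells of each treatment, with all reads (left) and after thinning to 100000 listed reads (right). Bars of the DMSO cells peak at 7 kinases and bars of the GNF4877 cells at 5 with all reads, and at 4 and 3 after thinning.

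Every family was present in most cells. A read of *Dyrk1a*, *Dyrk1b* or *Dyrk2* was found in 50 of the 56 DMSO and 44 of the 58 GNF4877 beta cells, any GSK3 read in 55 and 49, and any CLK read in all 56 and all 58. All 4 CLK genes together were read in 31 DMSO and 13 GNF4877 beta cells.

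*Dyrk1a* and *Gsk3b* were read in the same cell in 20 of the 56 DMSO beta cells (35.7%, 23.4% to 49.6%) and 8 of the 58 GNF4877 beta cells (13.8%, 6.15% to 25.4%). *Gsk3b* alone was read in 31 and 39 cells, *Dyrk1a* alone in 2 and 1, and neither in 3 and 10. Nearly all beta cells with a *Dyrk1a* read therefore had a *Gsk3b* read as well. In the 18 GNF4877 alpha cells, *Gsk3b* was read in 2 of the 5 with *Dyrk1a* and in 76.9% of the 13 without it. At equal depth, 11 of 54 DMSO and 3 of 57 GNF4877 beta cells had both.

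The share with *Gsk3b* was nearly the same with and without *Dyrk1a* in DMSO. *Gsk3b* was read in 90.9% of the 22 DMSO beta cells with *Dyrk1a* and in 91.2% of the 34 without it. In GNF4877 the shares were 88.9% of 9 cells and 79.6% of 49. The DMSO cells with *Dyrk1a* had a median of 9080.5 genes read and those without 8309, and in GNF4877 the medians were 6763 and 7111 genes. Median mapped reads were 1111520.5 with and 1285269 without *Dyrk1a* in DMSO, and 1460606 and 1416621 in GNF4877.

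Over the 36 pairs of kinases, the share of DMSO beta cells with a read of both ranged from 0% to 87.5%, with a median of 58.04%, and in GNF4877 from 0% to 81.03%, with a median of 22.4%. With all reads, the pair most often read together was *Gsk3b* with *Clk1* in both treatments. At equal depth in GNF4877 it was *Dyrk2* with *Clk1*, in 29 of 57 beta cells, against 28 for *Gsk3b* with *Clk1*. Pearson r of log2(RPM + 1) ranged from -0.19 to 0.39 over the pairs in DMSO and from -0.15 to 0.34 in GNF4877, with medians of 0.08 and 0.05. For *Dyrk1a* with *Gsk3b* it was 0.07 and 0.04. *Dyrk1a* had no read in 34 of the 56 DMSO and 49 of the 58 GNF4877 beta cells. With so many cells at 0, this r cannot show whether their levels go together. The cells also differ in depth, and those of a treatment may share a chip.

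In GNF4877 alpha cells, *Clk1* was the most widely and *Dyrk1b* the least widely read. The 18 GNF4877 alpha cells all had *Clk1* reads (81.5% to 100%), from 4.23 to 2101 RPM with a median of 289 RPM. In the GNF4877 beta cells the median was 62.9 RPM. The means were 456 RPM in alpha and 156 RPM in beta cells, a log2 ratio of 1.54, from 1.1999, without alpha cell 53 at 2101 RPM, to 1.64 with any 1 cell left out. *Clk1* thus had a higher level in alpha than in beta cells of GNF4877, although the ranges overlapped.

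*Gsk3b* had the opposite order in GNF4877. It was read in 12 of the 18 alpha cells (66.7%, 40.99% to 86.7%), from 0 to 453 RPM with a median of 11.7 RPM. The mean was 85.7 RPM in alpha and 209 RPM in beta cells, a log2 ratio of -1.27, from -1.69 to -1.19 with any 1 cell left out. *Dyrk1a* was read in 5 of the 18 alpha cells (27.8%, 9.69% to 53.5%), from 0 to 224 RPM. Its log2 ratio of alpha over beta cells was 0.82, but -0.38 without alpha cell 53, at 224 RPM. It passed 2-fold without beta cell 21 (98.7 RPM, ratio 1.02), 61 (151 RPM, 1.16) or 81 (315 RPM, 1.67). That ratio thus rested on single cells.

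Of the other kinases in GNF4877 alpha cells, *Dyrk2* was read in 11 of 18, *Clk4* in 10, *Clk2* and *Clk3* in 9 each and *Gsk3a* in 4. *Gsk3a* passed 2-fold lower with a log2 ratio of -1.33, at means of 0.655 and 3.16 RPM, and not without beta cell 22 (54.6 RPM, -0.98) or 48 (64.8 RPM, -0.90), nor with 10 RPM added to each mean (-0.30). *Clk2* and *Clk3* had ratios of -0.51 and -0.39, which became -1.99 without alpha cell 9, at 386 RPM, and -1.37 without alpha cell 85, at 406 RPM. *Clk4* had a ratio of 0.24, against a difference of mean log2 values of -0.22, and of -0.04 without alpha cell 53, at 428 RPM. *Dyrk2* had a ratio of 0.04, against a difference of -0.27, and its ratio was below 0 without alpha cell 7 (683 RPM, -0.24), 34 (597 RPM, -0.19), 8 (594 RPM, -0.19), 94 (336 RPM, -0.05) or 59 (283 RPM, -0.02).

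Against the background, the kinases did not stand out as a family. Over 12812 genes, 13.8% had a mean 2-fold higher in GNF4877 alpha than beta cells and 33.5% a mean 2-fold lower. Of the 8 kinases, 1 (*Clk1*) was 2-fold higher and 2 (*Gsk3a* and *Gsk3b*) were 2-fold lower. By the mean of log2(RPM + 1), *Clk1* was again higher, against 3.44% of all genes, and only *Gsk3b* lower, against 20.2%, with *Gsk3a* at -0.29. The median log2 ratio of the kinases was -0.18, against -0.42 over all genes. A median of 4 kinases was read per GNF4877 alpha cell, from 2 to 7, and a median of 5864.5 genes.

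DMSO gave only 5 alpha cells, numbered 33, 67, 89, 90 and 94. In that order, *Clk1* stood at 47.1, 184, 116, 323 and 229 RPM. *Gsk3b* stood at 0, 0, 181, 32.6 and 290 RPM, and *Dyrk1a* at 7.84, 0, 0, 0 and 1.39 RPM. *Clk1* was thus read in every one of them, *Gsk3b* in 3 and *Dyrk1a* in 2, and only cell 94 held *Dyrk1a* and *Gsk3b* together.

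*Dyrk2* stood at 41.8, 140, 901, 2.96 and 160 RPM in the same cells, and *Clk4* at 100.2, 66.5, 89.4, 166 and 31.97 RPM. *Clk3* stood at 116, 7.04, 13.5, 0 and 11.1 RPM, while *Clk2* had reads in cells 67 and 89 and *Gsk3a* in cell 67. Each cell held reads of 4 to 6 of the kinases.

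Means over so few cells turned on single ones. Of the 8 kinases, 1 (*Dyrk2*) had a mean 2-fold higher in DMSO alpha than beta cells, against 12.9% of 12855 genes, and 4 (*Dyrk1a*, *Gsk3a*, *Clk2* and *Clk3*) had a mean 2-fold lower, against 45.6% of the genes. The log2 ratio of *Dyrk2* was 1.08, and -0.44 without alpha cell 89, at 901 RPM. That of *Gsk3b* was -0.53, and passed 2-fold at -1.44 without cell 94, at 290 RPM. *Clk4* had a ratio of 0.32, and of -0.01 without cell 90, at 166 RPM. By the mean of log2(RPM + 1), 3 kinases were past 2-fold higher in the 5 alpha cells, *Dyrk2* (1.55), *Clk1* (1.34) and *Clk4* (1.797), against 10.9% of all genes. By the same measure 3 were past 2-fold lower, *Gsk3a* (-1.21), *Gsk3b* (-1.62) and *Clk2* (-1.80), against 30.6%.

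Those of *Dyrk1a*, *Gsk3a*, *Clk2* and *Clk3* were -1.68, -2.07, -3.12 and -1.32, and stayed past 2-fold with any 1 cell left out. *Clk3* moved furthest, to -3.09 without cell 33, *Dyrk1a* moved to -2.76 without the same cell, and *Gsk3a* to -2.77 without cell 67. By the mean of log2(RPM + 1), *Dyrk1a* and *Clk3* were less than 2-fold lower, at -0.54 and -0.81, and their shares were no lower than in beta cells, so no order is read for them. With 10 RPM added to each mean, *Dyrk1a* and *Gsk3a* were also less than 2-fold lower, at -0.61 and -0.57. The ratio of *Clk1* was 0.64, in the same direction as in GNF4877 and below 2-fold, while its difference of mean log2 values was 1.34, past 2-fold.

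The 22 DMSO cells with both hormones held the kinases at least as often as DMSO beta cells for *Dyrk1b*, *Dyrk2*, *Clk1*, *Clk2* and *Clk3*. *Dyrk2*, *Clk1* and *Clk2* were read in all 22, *Clk3* in 21, *Gsk3b* in 20, *Clk4* in 18, *Gsk3a* in 14 and *Dyrk1a* in 7. Their medians were 171 RPM of *Clk1*, 114 RPM of *Gsk3b* and 0 RPM of *Dyrk1a*. A median of 7 kinases and of 9093.5 genes was read per cell, both no lower than in DMSO beta cells.

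The beta cells of GNF4877 included 10 with *Ccnb1*, the cyclin of the G2 to M transition, at 10 RPM or more. *Dyrk1a* was read in 1 of these 10 cells and 8 of the other 48, *Gsk3b* in 7 and 40, and *Clk1* in 9 and 48. The median of *Clk1* was 103.1 RPM in the 10 cells and 47.3 RPM in the 48, and that of *Gsk3b* was 31.2 and 34.9 RPM. A median of 4.5 and 5 kinases was read per cell.

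The other CMGC kinases were compared between the beta cells of the treatments in the same way. Of the 50 in the table, 44 passed the limit of 1 RPM, with 5 of them 2-fold higher and 12 of them 2-fold lower in GNF4877, against 11% and 17% of all genes. Their median log2 ratio was -0.48, against -0.08 over all genes. *Cdk1*, the kinase partner of cyclin B, had means of 2.75 RPM in DMSO and 87.2 RPM in GNF4877, a log2 ratio of 4.56, and was read in 12.5% and 53.4% of beta cells. *Cdk2*, which acts in S phase, had means of 27.99 and 116 RPM, a log2 ratio of 2.01.

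The others that were 2-fold higher, named after their values were seen, were *Csnk2a2*, *Cdkl2* and *Cdkl3*, of which *Cdkl2* and *Cdkl3* fell below 2-fold without their highest GNF4877 cell. Of those 2-fold lower, *Hipk2*, *Cdk13* and *Mapk10* did not reach 2-fold without their highest DMSO cell. The lowest ratios among genes averaging 10 RPM or more were those of the stress kinase *Mapk14* (p38 alpha), at -2.06 with means of 126 and 29.4 RPM, and of *Cdk14*, at -1.61 with means of 24.9 and 7.52 RPM.

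DYRK1A partners and substrates included 13 of 16 genes above the limit. Of these, 0 were 2-fold higher and 4 were 2-fold lower, namely *Ccnd2*, *Cdkn1b*, *Nfatc1* and *Sirt1*, against 11% and 17% of all genes. The median log2 ratio was -0.39 over the list and -0.08 over all genes. *Ccnd2*, a D-type cyclin, had means of 389 and 146 RPM, a log2 ratio of -1.40. *Cdkn1b*, which encodes the cell cycle inhibitor p27, had means of 19.9 and 5.94 RPM, a log2 ratio of -1.59. The highest ratios were 0.74 for *Ccnd3* and 0.68 for *Rcan1*, a regulator of calcineurin, and the ratio of *Rcan1* was -0.15 without its highest GNF4877 cell.

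For partners and substrates of GSK3, 14 of the 15 genes in the table were above the limit, with 1 (*Akt2*) 2-fold higher, against 11% of all genes, and a median log2 ratio of -0.48, against -0.08. *Gys2* and *Myc*, named after their values were seen, were among those 2-fold lower. *Gys2* was less than 2-fold lower without its highest DMSO cell, at -0.67. *Akt2*, whose product phosphorylates and inhibits GSK3, had means of 6.91 and 23.5 RPM, a log2 ratio of 1.63 that was 0.94 without its highest GNF4877 cell. *Mcl1*, a survival factor that GSK3 marks for degradation, had a ratio of 0.32. The lowest ratios among genes averaging 10 RPM or more were -0.98 for *Eif2b5*, a GSK3 substrate in translation initiation, and -0.95 for *Csnk1a1*, the kinase that primes β-catenin for GSK3. Each of them passed 2-fold without its highest GNF4877 cell, at -1.55 and -1.09.

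In the calcineurin and NFAT list, 11 of 14 genes were above the limit. Of these, 0 were 2-fold higher and 5 were 2-fold lower, namely *Ppp3cc*, *Ppp3r1*, *Nfatc1*, *Nfat5* and *Rcan2*, against 11% and 17% of all genes. The median log2 ratio was -0.50, against -0.08 over all genes. *Rcan2*, a calcineurin regulator, had means of 79.3 and 29.5 RPM, a log2 ratio of -1.40, and *Ppp3r1*, the regulatory subunit of calcineurin, had means of 63.2 and 24.4 RPM, a log2 ratio of -1.33. *Rcan1*, which is in this list too, and *Nfatc3*, at -0.03, had the highest ratios. *Ppp3cc* was less than 2-fold lower without its highest DMSO cell, at -0.84.

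Of the SR proteins on which CLK kinases act, all 13 were above the limit, 1 (*Srsf12*) was 2-fold higher and 0 were 2-fold lower, against 11% and 17% of all genes. Their median log2 ratio was 0.12, against -0.08 over all genes, while 10 of the 13 had a lower share of cells with a read in GNF4877, so no direction is read for the list. *Srsf12* fell to 0.62 without its highest GNF4877 cell. *Tra2b* had means of 107 and 186 RPM, a log2 ratio of 0.80, and *Srsf3* of 353 and 566 RPM, a log2 ratio of 0.68, and both were read in all 56 and all 58 beta cells. The lowest ratios were -0.69 for *Srsf9* and -0.62 for *Tra2a*, which was -1.03 without its highest GNF4877 cell. Over these lists, most genes had a lower share of cells with a read in GNF4877, as 75.03% of all genes did, with 37 of 44 CMGC kinases among them.

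Genes most like a kinase were sought by Pearson r of log2(RPM + 1) across beta cells within each treatment, ordered by the lower r of DMSO and GNF4877, among the other genes read in 50% or more of the beta cells of each. For *Dyrk1a* these were *Opa1*, with r of 0.31 across 56 DMSO cells and 0.36 across 58 GNF4877 cells, *LOC100912840* (0.30 and 0.33) and *LOC691228* (0.45 and 0.30). *Gsk3b* was most like *Enpp5* (0.42 and 0.41), *Surf2* (0.62 and 0.40) and *LOC306766* (0.40 and 0.44). *Clk1* was most like *Ormdl2* (0.52 and 0.49), *Pdap1* (0.53 and 0.45) and *Mau2* (0.62 and 0.45). These r are the highest of 6204 or 6203 genes and describe these cells only. The cells share a depth range, and those of a treatment may share a chip.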

How the data were processed

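Single rat islet cells were profiled by RNA-seq with 50 bp single reads. The authors deposited RPM per transcript. The mouse transcriptome is given as alignment target, yet the accessions are those of rat RefSeq. The submitters' processing notes list CASAVA 1.8.2, BWA 0.5.9 and SAMtools 0.1.19. Values at the floor of 0.01 were set to 0, and rows of a symbol were summed. Reads were taken from the step between low values of a cell. The 9 kinases, the gene lists and the cell rule were chosen with earlier results of these data known. Genes named are the kinases, the cell markers, the 2 highest and 2 lowest ratios of each list among genes averaging 10 RPM or more, and the 3 genes most like *Dyrk1a*, *Gsk3b* and *Clk1*; others were named after their values were seen. Ratios add 1 RPM to each mean. Shares have Clopper-Pearson intervals at 95%. A comparison of the kinase proteins was planned and is not reported here. The steps were tested on simulated cells. The software was matplotlib 3.10.9, scipy 1.17.1, pandas 2.3.3, numpy 2.4.6 and Python 3.11.15.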

Additional observations from a re-analysis of the deposited data

How the results depend on the processing

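No paired analysis was possible, since a treatment is 1 sample and the cell numbers pair no cells. With genes counted as read only from 10 RPM, the share of *Dyrk1a* was 21.4% in DMSO and 6.90% in GNF4877 beta cells, *Gsk3b* had 60.3% in GNF4877, both together had 16.1% and 3.45%, and the median number of kinases was 4.5 and 3. At 100000 listed reads per cell, both together had 20.4% and 5.26%, and *Gsk3b* had 63.2% in GNF4877. Both rules count fewer reads, and no share was higher under them. The difference of mean log2(RPM + 1) turned the GNF4877 over DMSO ratio of *Dyrk1a* from 0.39 to -0.78 and that of *Gsk3b* from 0.51 to -0.84; the cause was not tested. With single cells left out, the ratio of *Dyrk1a* ran from -0.46 to 0.72. The ratio of *Dyrk2* in DMSO alpha over beta cells ran from -0.44, without cell 89, to 1.40. Over all genes, 1458 were past 2-fold higher and 2254 past 2-fold lower in GNF4877 beta cells; with a minimum of 10 RPM, which tests fewer genes, they were 735 and 1003. Of 40 shares, 0 moved outside their main intervals with a hormone threshold of 10000 RPM, with cells with *Sst* or *Ppy* left out, or, chosen after seeing the data, with cells under 20% listed reads left out. With 3 reads or more required, 9 of the 40 did, at 100000 reads 15 and at 10 RPM 24. Taking the highest row of a symbol tests nothing here, since each kinase has 1 row. Ratios have no intervals, and one was counted as moved when it changed by more than 1.5-fold. Of 27 ratios, 14 moved and 8 changed sign with the difference of mean log2(RPM + 1). Scaling to listed reads moved 0 ratios, though that of *Gsk3a* in beta cells passed 2-fold at -1.06. Under that scaling 1 ratio changed sign, that of *Dyrk2* in GNF4877 alpha over beta cells, from 0.04 to -0.01. With a hormone threshold of 10000 RPM 1 ratio changed sign, and with cells with *Sst* or *Ppy* left out 1 did. Leaving out cells with *Sst* or *Ppy* moved 2 of 27 ratios, and 4 of 27 moved with 0.1 RPM and 4 with 10 RPM added.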
